A study of Mus musculus with 7 samples.

Results

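The genes described here encode the machinery through which secretory and membrane proteins enter the endoplasmic reticulum (ER): the signal recognition particle (SRP) and its receptor, the Sec61 channel with its partners, the translocon-associated protein (TRAP) complex, the signal peptidase and the oligosaccharyl transferase (OST). They were chosen by name as subunits of these complexes and number 36 of the 48795 genes in the expression table. No measured value set the choice, but earlier results of these data were known when it was made. The 36 comprise 6 SRP subunits, 1 SRP receptor subunit, 4 Sec61 channel subunits, 4 channel partners, 4 TRAP subunits, 5 signal peptidase subunits and 12 OST subunits.

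RNA was sequenced in bulk from 3 libraries of memory B cells (MBC) and 4 libraries of plasma cells (PC). All came from the spleens of wild-type C57BL/6 female mice, 8 to 12 weeks of age, that had received sheep red blood cells (SRBC) intravenously 10 days earlier, so no group was left without immunization. After magnetic enrichment of B cells, the MBC gate took cells positive for B220, CD38 and CD273 and negative for CD138 and IgD, and the PC gate took cells low for B220, positive for CD138 and negative for IgD. The PC gate does not separate dividing plasmablasts from mature PCs, nor cells raised by the SRBC from those already present, and the labels do not say whether libraries of a group came from separate mice. The titles give a shared code to MBC replicate 1 and PC replicate 1, to MBC replicate 2 and PC replicate 3, and to MBC replicate 3 and PC replicate 4, and the last pair carries a title prefix of its own; what codes and prefixes stand for is not given in the sources used here. The comparison of PCs with MBCs asks how the ER entry machinery differs between antibody-secreting cells and resting antigen-experienced B cells.

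A protein bound for secretion carries a hydrophobic signal sequence that the SRP catches as it leaves the ribosome. The SRP docks on its receptor, the ribosome is handed to the Sec61 channel, the signal peptidase cuts the signal sequence off inside the ER, and the OST attaches preassembled sugar chains to asparagines of the growing protein. Several of the subunits exist as paralogs: the catalytic OST subunit is either Stt3a, which works beside the channel during translation, or Stt3b, which can also act on finished chains. PCs are known for the heavy load of immunoglobulin that passes this route.

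Promoter sequence was at hand for 27 of the 36 genes (RefSeq, GRCm38.p6, 250 bases before to 50 bases after each annotated start). Each window was searched on both strands for short letters of the unfolded protein response, the ER stress programme that uses the factors ATF6 and XBP1. CCACG, which the ER stress response elements share, occurred in 18 of the 27 genes, against 53.1% of the 7889 tested genes with an entry and 35.5% of all 27025. ACGTG, the core of XBP1 sites, occurred in 12 of the 27, against 30.5% of tested genes, and CCAAT occurred in 14, against 43.8%. With both strands searched, CCACG and ACGTG overlap wherever CCACGT or its reverse complement ACGTGG is written, as in Krtcap2. Their counts are therefore not independent. None of the 27 held the complete element ERSE (CCAAT, 9 bases, CCACG) or UPRE (TGACGTGG), which 0.152% and 1.09% of tested genes held, and Krtcap2 alone held ERSE-II (ATTGG, 1 base, CCACG), which 0.101% of tested genes held. Among members called higher in PCs, 14 of 19 held CCACG, against 4 of 8 of those not called. The 4 windows shown belong to the catalytic paralogs Stt3a and Stt3b, to Krtcap2 with its ERSE-II, and to Tram2, whose level rose most among the channel partners. Capitals mark CCACG or its reverse complement CGTGG, and each sequence is written in the direction of its gene. The Stt3a and Stt3b windows each held 1 match, which began 106 bases before the start in Stt3a and 239 bases before it in Stt3b, so the letters alone did not separate these paralogs. In the Krtcap2 window shown, the CCACG of the ERSE-II began 23 bases after the start, and another CCACG began 55 bases before it. The window of another annotated Krtcap2 start (chr3:89246188-89246487) held 1 CCACG, 20 bases before that start, and no ERSE-II. The windows are chr9:36767573-36767872 (minus strand) for Stt3a, chr9:115310419-115310718 (minus strand) for Stt3b, chr3:89246223-89246522 (plus strand) for Krtcap2 and chr1:21079176-21079475 (minus strand) for Tram2.
Stt3a: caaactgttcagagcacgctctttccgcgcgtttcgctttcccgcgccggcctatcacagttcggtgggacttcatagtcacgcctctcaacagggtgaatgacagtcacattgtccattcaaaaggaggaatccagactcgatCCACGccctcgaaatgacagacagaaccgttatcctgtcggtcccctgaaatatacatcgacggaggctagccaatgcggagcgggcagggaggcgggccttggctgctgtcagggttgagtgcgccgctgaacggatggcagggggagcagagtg
Stt3b: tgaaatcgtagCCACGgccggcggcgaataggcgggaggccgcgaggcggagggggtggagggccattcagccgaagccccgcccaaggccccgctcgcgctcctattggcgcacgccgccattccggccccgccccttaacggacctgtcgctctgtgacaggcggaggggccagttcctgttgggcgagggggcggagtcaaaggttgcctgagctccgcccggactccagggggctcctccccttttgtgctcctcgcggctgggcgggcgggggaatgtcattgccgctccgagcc
Krtcap2: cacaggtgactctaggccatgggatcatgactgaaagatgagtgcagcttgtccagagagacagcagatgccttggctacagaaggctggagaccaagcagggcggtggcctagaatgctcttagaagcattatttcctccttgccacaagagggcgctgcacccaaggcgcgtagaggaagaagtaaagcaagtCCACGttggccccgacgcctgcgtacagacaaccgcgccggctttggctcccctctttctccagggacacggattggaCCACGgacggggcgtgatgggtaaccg
Tram2: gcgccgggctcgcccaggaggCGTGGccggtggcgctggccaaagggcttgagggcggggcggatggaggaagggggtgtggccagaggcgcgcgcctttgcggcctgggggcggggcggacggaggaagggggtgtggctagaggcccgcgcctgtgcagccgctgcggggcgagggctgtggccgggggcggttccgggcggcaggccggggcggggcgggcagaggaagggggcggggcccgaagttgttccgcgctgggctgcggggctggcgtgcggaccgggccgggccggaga

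Levels are given as scaled TPM, that is, TPM (transcript abundance per length, summing to 1000000 in each library) divided by a factor for the library. The factor is the median ratio to the geometric mean over 9305 genes, because immunoglobulin (Ig) transcripts took 49.4 to 55.9% of all TPM in PCs but 1.65 to 3.16% in MBCs. TPM keeps no read depth, so the depth behind a value is unknown and no counting interval is given. Genes above 0 numbered 12983, 11527 and 18061 in MBC replicates 1, 2 and 3 and 14463 to 16768 in PCs. Mitochondrial genes took 19.7 to 33.5% of TPM in MBCs and 8.10 to 9.80% in PCs. Both measures differ between libraries, and their part in the differences was not tested. A difference is the log2 fold change (PC minus MBC) of log2(scaled TPM + 1) from limma, fitted over 11573 genes, and for low genes this scale gives too small a change. Calls required an adjusted p below 0.05 together with a change of at least 1 on the log2 scale.

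MBC replicate 3, the MBC library with the other title prefix, stood apart from its group. Its Cd38 was 6.77 scaled TPM, against 130.3 and 186 in MBC replicates 1 and 2, and its Pdcd1lg2, the gene for CD273, was 2.59 against 43.3 and 24.4. Results are therefore also given without it. The PC label fitted its markers: all 5 PC markers were called higher and all 5 B cell markers lower. T cell genes summed to 0 to 24.5 scaled TPM in MBCs and 15.3 to 43.3 in PCs, with 3 of 8 tested, 2 of them called higher in PCs, and Cd3g and Cd8a at 0 in every MBC library. Myeloid genes summed to 5.73 to 39.6 in MBCs and 23.1 to 30.9 in PCs, with 4 of 7 tested, none called and S100a9 listed at 0 throughout. Erythroid genes summed to 4.17 to 4524 in MBCs, with the highest sum in MBC replicate 2, and 0.32 to 122 in PCs. Their part in the results was not tested.

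All 36 genes passed the filter on low values. In PCs 26 of them were called higher and 0 lower, and 10 were not called. Over all genes tested, 6.41% were called higher in PCs. The median log2 fold change of the 36 genes was 2.51, against 0.14 over all tested genes, and the range ran from -0.39 for Sec61a2 to 4.90 for Spcs1. For 30 genes every PC library lay above every MBC library, as it did for 13.0% of all tested genes. With TPM as deposited, where the median of all tested genes was -0.91, 18 genes were called higher. The calls of Srp9, Srp54a, Srp68, Sec63, Ssr1, Sec11a, Rpn1 and Ost4 ended. Without MBC replicate 3, 27 of the 36 genes were called higher, beside 15.1% of 10748 genes tested, and within the title prefix that holds the other 2 MBC and 3 PC libraries 24 were. The share called over all genes was not taken for TPM as deposited or within the title prefix. In bulk RNA, fewer cells of a type and less RNA per cell cannot be told apart. Summed over the 36 genes, scaled TPM was 814, 1156 and 1101 in the MBC libraries and 5410, 6830, 4786 and 5583 in the PC libraries. As a share of TPM outside Ig and mitochondrial genes, the sum reached 0.263% ± 0.0276 in the MBC group (SD, n = 3) but 1.03% ± 0.121 among PCs (SD, n = 4), a 3.91-fold difference of means that is given as a description. With all genes in the total the ratio was 2.19, because Ig then fills much of the PC total. Ig TPM per TPM of the 36 genes was 7.29 to 21.3 in MBCs and 116 to 162 in PCs.

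**Figure D1:**
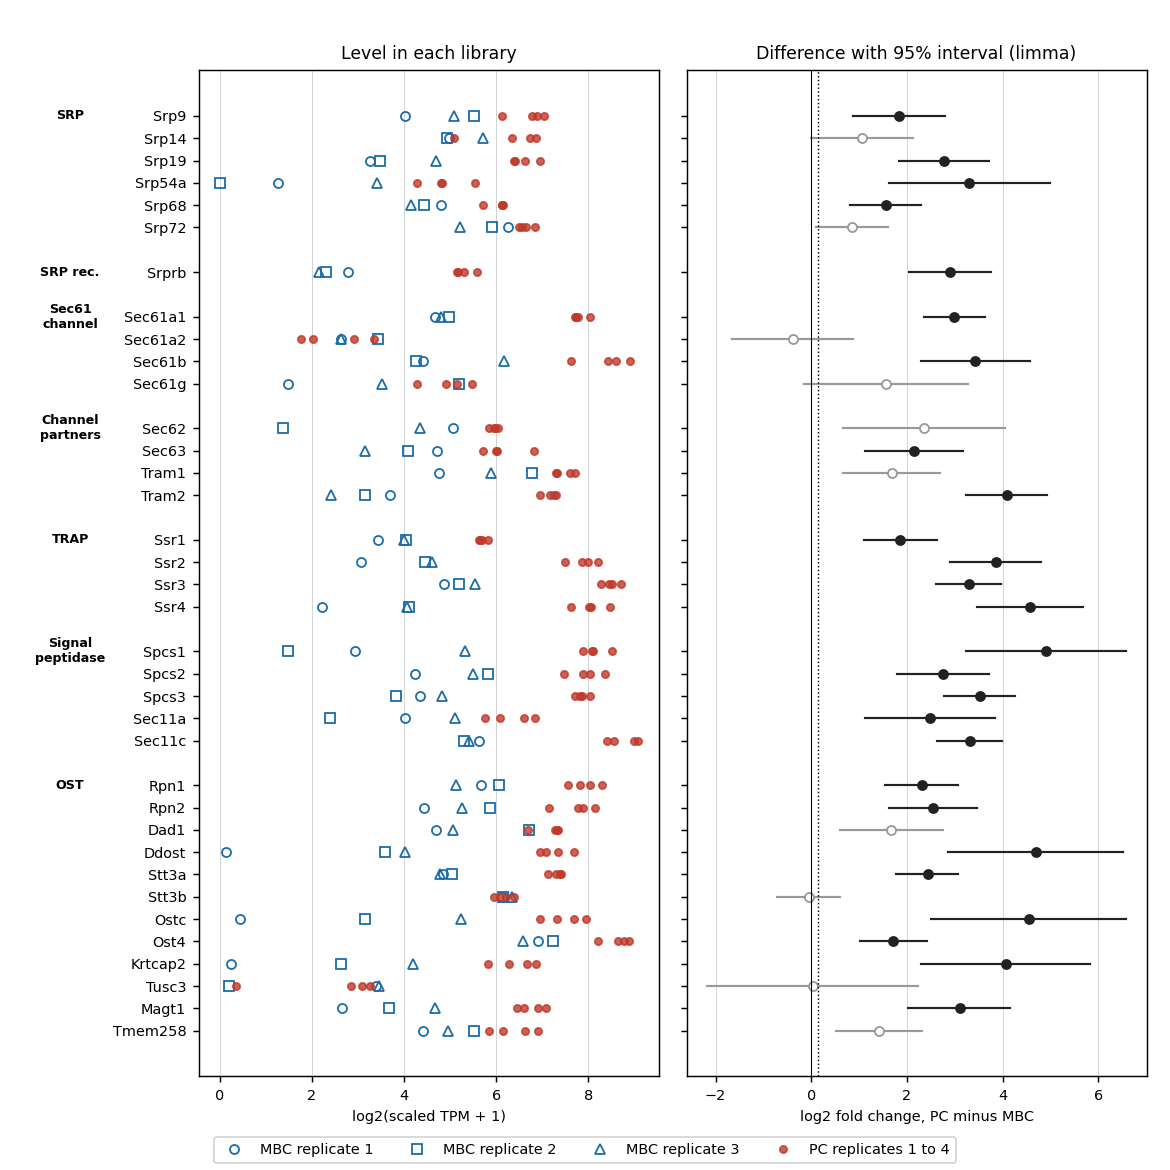
Left, log2(scaled TPM + 1) of each of the 36 genes in each library, with open blue symbols for the 3 MBC libraries and red points for the 4 PC libraries. Right, the limma log2 fold change (PC minus MBC) with its 95% interval, where black marks the 26 genes called higher, open grey circles the 10 not called, and the dotted line the median of all tested genes (0.14). Red points lie to the right of all blue symbols in 30 rows, while Stt3b, Sec61a2 and Tusc3 lie near 0.

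The SRP, which recognises the signal sequence, had the lowest median of the complexes, with 4 of 6 subunits called higher and a median log2 fold change of 1.70. Srp19, which helps to assemble the particle on its RNA, was at 8.58, 10.1 and 25.0 scaled TPM in MBCs and 82.2, 122, 98.2 and 84.0 in PCs. Every PC library was above every MBC library, and the log2 fold change was 2.78 ± 0.42 (SE; limma adjusted p = 0.0029). Srp68 rose by 1.56 on the log2 scale (limma adjusted p = 0.0187, SE 0.33), from 16.8 to 27.0 in MBCs to 51.1 to 69.5 in PCs. Srp9, which pairs with Srp14 to pause translation, rose by 1.83 (limma adjusted p = 0.0277, SE 0.43). Its call was lost without MBC replicate 1 (adjusted p = 0.071) and without PC replicate 1, 2 or 4 (adjusted p from 0.075 to 0.095), and that of Srp68 was lost without PC replicate 1, 2 or 3 (adjusted p from 0.051 to 0.08). Srp72 was at 74.9, 58.7 and 36.1 in MBCs and 113, 89.8, 99.9 and 93.5 in PCs. Its groups did not overlap, but the log2 fold change of 0.85 did not pass the test (limma adjusted p = 0.159, SE 0.34). Srp14 overlapped between the groups, at 29.4 to 51.1 in MBCs and 32.7 to 116 in PCs, with a log2 fold change of 1.06 that did not pass either (limma adjusted p = 0.212, SE 0.48). With TPM as deposited the values of Srp72 and Srp14 were below 0, at -0.45 and -0.24.

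Srp54a encodes the GTPase that binds the signal sequence, and its value is uncertain because 75.2% of the 50-base words of its longest coding transcript also occur in transcripts of other genes, chiefly Srp54b and Srp54c. It was listed at 1.39, 0 and 9.67 scaled TPM in MBCs and at 18.5, 27.2, 45.4 and 27.1 in PCs, and was called higher (log2 fold change 3.30, SE 0.75, limma adjusted p = 0.0255). Srp54c was more abundant, at 31.7, 54.9 and 44.9 in MBCs and 72.2, 80.05, 51.4 and 63.8 in PCs, and was not called (log2 fold change 0.61, limma adjusted p = 0.3035). Srp54b was not analysed here. The sum of Srp54a and Srp54c was 33.1, 54.9 and 54.6 in MBCs and 90.7, 107, 96.8 and 90.8 in PCs. Every PC sum was above every MBC sum, with a log2 fold change of 1.04 (SE 0.32) that did not pass the test (limma adjusted p = 0.0797). The call for Srp54a alone was also lost on leaving out MBC replicate 1 or 2 or any PC replicate, with adjusted p from 0.052 to 0.087, and its log2 fold change ran from 2.49 without MBC replicate 2 to 4.13 without MBC replicate 3.

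The SRP receptor was represented by Srprb, the membrane anchor of the receptor, which was called higher. Srprb was at 5.87, 3.91 and 3.43 scaled TPM in MBCs and 34.4, 47.1, 35.1 and 38.5 in PCs, an 8.80-fold difference of means and a log2 fold change of 2.89 (limma adjusted p = 0.0014, SE 0.38). The groups were far apart relative to their spread. Its transcript shares 28.4% of its words with Gm20425, an overlapping gene on the same strand that was listed at 0 in every library but PC replicate 4 (0.0418). Srpra, the GTPase subunit of the receptor and no member of the 36, was also called higher (log2 fold change 2.25, SE 0.52, limma adjusted p = 0.0265).

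The Sec61 channel is built of an alpha, a beta and a gamma subunit, and its genes did not move alike. Sec61a1, the alpha subunit that forms the pore, was at 24.6, 30.4 and 26.8 scaled TPM in MBCs and 210.5, 262, 217 and 207 in PCs. Spread within each group was small, and the log2 fold change was 2.99 (limma adjusted p = 0.00019, SE 0.29), with 2.98 without MBC replicate 3. Sec61b, the beta subunit, was at 20.3, 18.3 and 71.2 in MBCs and 340.4, 477, 197 and 386 in PCs, with the highest MBC value in MBC replicate 3. It rose by 3.43 on the log2 scale (limma adjusted p = 0.0028, SE 0.51), and by 4.04 without that library. Sec61b shares 41.0% of its words with Gm10320 and other genes, but the sum with those that the table lists gave nearly the same value (3.41).

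Sec61a2, the less abundant alpha paralog, was at 5.21, 9.74 and 5.22 scaled TPM in MBCs and 6.50, 3.09, 2.40 and 9.15 in PCs. These ranges overlapped, and the log2 fold change of -0.39 did not pass the test (95% interval -1.66 to 0.88; limma adjusted p = 0.7228). The Sec61a2 gene overlaps Nudt5 on the opposite strand, and whether reads were counted by strand is not given in the sources used here.

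Sec61g, the gamma subunit, depended on how its near copy was treated. As listed it was at 1.78, 35.5 and 10.5 scaled TPM in MBCs and 18.6, 43.2, 34.7 and 29.3 in PCs, with overlapping groups and a log2 fold change of 1.56 that did not pass the test (limma adjusted p = 0.2482, SE 0.76). It was 0.57 without MBC replicate 1 and 2.42 without MBC replicate 2. Gm10177, which shares 20.5% of the words of Sec61g, was listed at 21.1, 0 and 71.3 in MBCs and 110, 283, 109 and 218 in PCs, in PCs well above Sec61g itself. Summed with Gm10177 and Gm11575, Sec61g came to 22.9, 35.5 and 81.8 in MBCs and 128, 331, 144 and 251 in PCs. The sum was called higher, with a log2 fold change of 2.26 (limma adjusted p = 0.0227, SE 0.50). Which of these genes the reads came from cannot be told apart in this table.

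Among the channel partners, Tram2 showed the largest difference and 2 of 4 genes were called higher. TRAM proteins sit beside the channel and contact signal sequences as they enter. Tram2 was at 12.0, 7.87 and 4.33 scaled TPM in MBCs and 157, 142, 152 and 122 in PCs, a 17.8-fold difference of means. The log2 fold change was 4.08 (limma adjusted p = 0.00016, SE 0.38), and 3.73 without MBC replicate 3. Tram1 was the more abundant paralog in MBCs, at 26.1, 109 and 58.05, and was at 158, 209, 156 and 193 in PCs. Every PC library lay above every MBC library, but the log2 fold change of 1.68 missed the threshold narrowly (limma adjusted p = 0.051, SE 0.45). It passed without MBC replicate 2 (2.13, adjusted p = 0.012) and without MBC replicate 3 (1.71, adjusted p = 0.049), and was 1.13 without MBC replicate 1 (adjusted p = 0.12).

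Sec62 and Sec63 open the channel for short and slowly gating proteins, and Sec63 also brings the chaperone BiP to the pore. Sec63 was at 25.4, 15.95 and 7.90 scaled TPM in MBCs and 112, 51.8, 62.6 and 63.7 in PCs, and was called higher (log2 fold change 2.15, SE 0.46, limma adjusted p = 0.0183). Leaving out PC replicate 1, 3 or 4 moved its adjusted p to between 0.052 and 0.053. Sec62 ranged widely in MBCs, at 32.5, 1.58 and 19.2, and narrowly in PCs, at 60.5, 62.0, 56.0 and 64.9. The groups did not overlap, yet the log2 fold change of 2.36 did not pass the test (limma adjusted p = 0.0912, SE 0.75). It was 3.06 without MBC replicate 1 (adjusted p = 0.038), which passed, and 1.21 without MBC replicate 2 (adjusted p = 0.076), which did not.

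The TRAP complex, which assists the insertion of certain signal sequences, was called higher in all 4 subunits, with a median log2 fold change of 3.57. Ssr4 was at 3.66, 16.3 and 15.7 scaled TPM in MBCs and 266, 352, 196 and 257 in PCs, a 22.5-fold difference of means. The lowest PC library was far above the highest MBC library, and the log2 fold change was 4.57 (limma adjusted p = 0.00038, SE 0.49), or 3.92 without MBC replicate 1. Ssr2 was at 7.37 to 23.2 in MBCs and 179 to 293 in PCs (log2 fold change 3.85, SE 0.42, limma adjusted p = 0.00044). Ssr3 was at 28.2 to 45.2 in MBCs and 306 to 418 in PCs (log2 fold change 3.29, SE 0.30, limma adjusted p = 0.00016). Ssr1 differed least, at 9.81, 15.6 and 15.1 in MBCs and 48.0, 55.9, 48.8 and 50.3 in PCs (log2 fold change 1.86, SE 0.34, limma adjusted p = 0.0084). Its call ended with TPM as deposited (0.59, adjusted p = 0.23). It also ended when libraries were blocked by replicate number (1.86, limma adjusted p = 0.11) or by title code (1.82, limma adjusted p = 0.076). In PCs Ssr1 averaged 50.8 scaled TPM, well under the 239 to 359 of the other TRAP subunits, although the subunits are known to join in a single complex. Annotated coding transcripts of Ssr1 run from 523 to 9333 bases, and the length used for its TPM is not given in the sources used here.

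All 5 signal peptidase genes were called higher, with a median log2 fold change of 3.31. Spcs1, an accessory subunit, rose by 4.90 on the log2 scale (limma adjusted p = 0.003, SE 0.74). It was at 6.60, 1.79 and 38.8 scaled TPM in MBCs and 271, 364, 234 and 273 in PCs, so that MBC libraries differed among themselves more than PC libraries did. MBC replicate 2 was the lowest of its group and MBC replicate 3 the highest, and the log2 fold change was 3.99 without the former and 5.90 without the latter. Spcs1 had the largest value of the 36 genes as fitted, but by the ratio of group means Ssr4 led (22.5-fold against 18.2-fold). Without MBC replicate 2, Ddost, Ssr4, Ostc, Krtcap2, Tram2 and Ssr2 were above Spcs1 (5.14, 4.86, 4.59, 4.15, 4.07 and 4.02). The Spcs1 gene overlaps Glt8d1 on the opposite strand. Spcs3, needed for catalysis, was at 13.1 to 27.3 in MBCs and 207 to 259 in PCs (log2 fold change 3.52, SE 0.33, limma adjusted p = 0.00018). Spcs2 was at 17.8 to 55.9 in MBCs and 175 to 329 in PCs (log2 fold change 2.75, SE 0.43, limma adjusted p = 0.0036).

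The catalytic peptidase subunits are the paralogs Sec11a and Sec11c. Sec11c had the highest mean of the 36 genes in PCs, though not the highest value in PC replicates 3 and 4, at 505, 539, 339.8 and 374 scaled TPM, against 48.3, 38.65 and 41.7 in MBCs. Its groups were 10.2-fold apart in their means, and the log2 fold change was 3.31 (limma adjusted p = 0.00016, SE 0.30). Sec11a was at 15.3, 4.22 and 33.4 in MBCs and 113, 96.0, 52.85 and 67.1 in PCs. It was called higher (log2 fold change 2.48, SE 0.60, limma adjusted p = 0.0335), but the call was lost on leaving out MBC replicate 1 or 2 or any PC replicate, with adjusted p from 0.061 to 0.098, and the log2 fold change was 1.72 without MBC replicate 2 and 3.09 without MBC replicate 3.

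Of the 12 OST genes 8 were called higher, and the median log2 fold change was 2.37. The catalytic paralogs behaved differently. Stt3a was at 27.7, 31.75 and 26.3 scaled TPM in MBCs and 156, 167, 139 and 169.7 in PCs, and rose 5.52-fold in its mean (log2 fold change 2.43, SE 0.29, limma adjusted p = 0.00068). Stt3b was at 68.7, 69.9 and 80.3 in MBCs and 60.5, 66.3, 73.1 and 83.05 in PCs. The MBC range lay inside the PC range, and the log2 fold change of -0.05 had a 95% interval of -0.71 to 0.61 (limma adjusted p = 0.9372). By mean level Stt3b was rank 2 of the 36 genes in MBCs and rank 28 in PCs, although Srp72 in MBC replicate 1 and Tram1 and Dad1 in MBC replicate 2 exceeded it. Its own level differed by less than the spread between libraries. With TPM as deposited, a scale on which the median of all genes was -0.91, Stt3b was called lower (log2 fold change -1.36, limma adjusted p = 0.015).

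Subunits known to belong to the OST form built on Stt3a were called higher with it. Ostc, which links that form to the channel, was at 0.357, 7.85 and 36.5 scaled TPM in MBCs and 205, 247, 122 and 159 in PCs (log2 fold change 4.54, SE 0.91, limma adjusted p = 0.0141). Krtcap2 was at 0.181, 5.16 and 17.2 in MBCs and 55.3, 116, 76.3 and 101 in PCs (log2 fold change 4.06, SE 0.79, limma adjusted p = 0.0123). For both genes MBC replicate 1 was near 0 and MBC replicate 3 the highest of its group; the log2 fold changes of Ostc and Krtcap2 were 3.26 and 2.97 without MBC replicate 1 and 5.61 and 4.90 without MBC replicate 3. The subunits known from the form built on Stt3b are the oxidoreductases Magt1 and Tusc3. Magt1 was called higher, at 5.32, 11.8 and 24.3 in MBCs and 86.3, 134, 96.8 and 119 in PCs (log2 fold change 3.10, SE 0.47, limma adjusted p = 0.0031). Tusc3 was low in most libraries, at 9.46, 0.148 and 9.90 in MBCs and 0.267, 8.53, 6.18 and 7.54 in PCs. Its groups overlapped, and its log2 fold change of 0.04 had an interval so wide (-2.17 to 2.24) that neither a rise nor a fall could be seen (limma adjusted p = 0.9854).

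The OST subunits common to both forms ranged from called to not called. Ddost, which holds the catalytic subunit in place, had the largest difference, at 0.0933, 10.9 and 15.3 scaled TPM in MBCs and 123, 206, 160.5 and 134 in PCs. The log2 fold change was 4.69 (limma adjusted p = 0.0064, SE 0.82). It was 3.44 without MBC replicate 1, the library near 0, and 5.34 without MBC replicate 3. Rpn1 and Rpn2, the ribophorins that lie next to the ribosome, rose by 2.31 (limma adjusted p = 0.0026, SE 0.34) and 2.55 (limma adjusted p = 0.0044, SE 0.41). Ost4, a very small subunit, had the highest level of the 36 in each MBC library, at 119, 150.0 and 94.5, and was at 396.5, 468, 293 and 434 in PCs (log2 fold change 1.71, SE 0.31, limma adjusted p = 0.0087). Its call ended after quantile normalization (0.94, adjusted p = 0.072) and on unscaled TPM (0.39, adjusted p = 0.32). Dad1 was at 24.8, 103 and 32.5 in MBCs and 159, 160.3, 102.5 and 154 in PCs, where MBC replicate 2 just exceeded PC replicate 3. Its log2 fold change of 1.67 did not pass the test (limma adjusted p = 0.0646, SE 0.48), though it passed without MBC replicate 2 (2.24, adjusted p = 0.0048); without MBC replicate 1 it was 1.25 (adjusted p = 0.19). Tmem258 was at 20.4, 44.5 and 30.1 in MBCs and 56.4, 118.5, 70.3 and 97.7 in PCs. It did not overlap, but 1.42 did not pass the test (limma adjusted p = 0.0596, SE 0.40), except without MBC replicate 2 (1.66, adjusted p = 0.043), and was 1.12 without MBC replicate 1 (adjusted p = 0.16).

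Within a pair of paralogs, the share of each in the pair's TPM does not depend on the scaling of libraries, so 5 pairs were compared by share. Stt3b made up 71.25, 68.8 and 75.3% of the Stt3a and Stt3b TPM in MBCs and 28.0, 28.4, 34.45 and 32.9% in PCs. The major catalytic subunit transcript was therefore Stt3b in every MBC library and Stt3a in every PC library. On average Stt3b took 71.8% ± 3.32 (SD, n = 3) of the pair in MBCs but 30.9% ± 3.22 (SD, n = 4) of it in PCs, so the share changed by -40.9 points. Sec61a2 made up 17.5, 24.3 and 16.3% of the alpha subunit TPM in MBCs and 2.99, 1.17, 1.09 and 4.24% in PCs, a difference of -17.0 points. Tram2 made up 31.45, 6.76 and 6.95% of the TRAM pair in MBCs and 49.7, 40.5, 49.3 and 38.75% in PCs, a difference of 29.5 points. In these 3 pairs no MBC library overlapped a PC library, and each gave an exact two-sided permutation p of 0.0286, the smallest that the 35 assignments of 3 and 4 libraries allow (Benjamini-Hochberg adjusted over 5 pairs, 0.0476). The 5 pairs were chosen with earlier results of these data known, so these p-values describe the separation and are not independent support. The assignments took no account of the title codes that MBC and PC libraries share. Without MBC replicate 3 the differences were -39.1, -18.5 and 25.45 points for Stt3b, Sec61a2 and Tram2, in designs that cannot reach 0.05.

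The shares of Sec11c and Tusc3 did not separate the groups. Sec11c made up 75.9, 90.2 and 55.5% of the Sec11a and Sec11c TPM in MBCs and 81.7, 84.9, 86.5 and 84.8% in PCs, so it was the major peptidase subunit transcript in all 7 libraries. The difference of 10.6 points was within the spread of MBCs (exact two-sided permutation p = 0.257, adjusted 0.257). Tusc3 made up 64.0, 1.24 and 28.9% of the Magt1 and Tusc3 TPM in MBCs and 0.309, 5.97, 6.00 and 5.95% in PCs. MBC replicate 2 lay inside the PC range (exact two-sided permutation p = 0.114, adjusted 0.143). No 50-base word was shared within the Sec61a, Sec11, Stt3 and TRAM pairs.

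**Figure D2:**
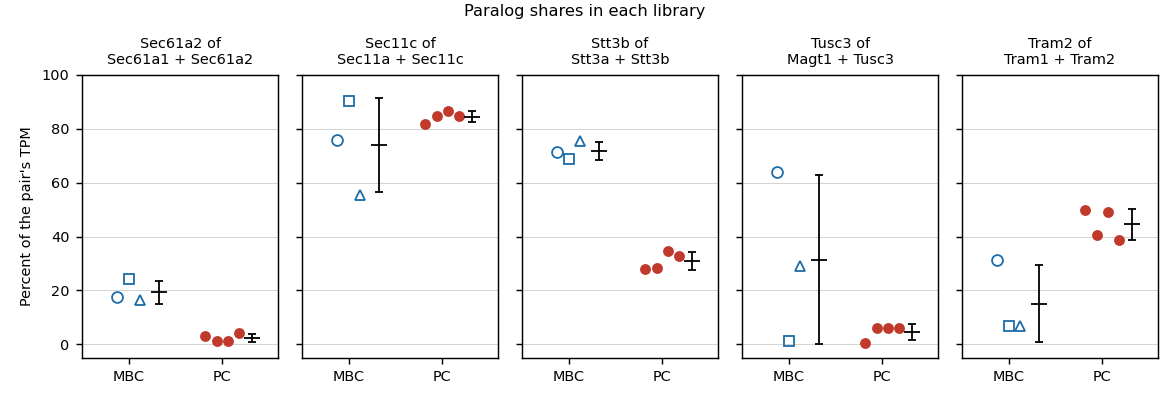
Percent of the pair's TPM taken by the named paralog in each library, for 5 paralog pairs. Open blue symbols are MBC libraries (circle, square and triangle for replicates 1, 2 and 3), red points are PC libraries 1 to 4, and black marks give the mean and SD. Stt3b and Sec61a2 lie lower in every PC library and Tram2 higher, while the shares of Sec11c and Tusc3 overlap.

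The make-up of the machinery also differed by complex, given here as shares of the 36 genes' summed TPM in each library and, since the sums were formed with results known, without a test. TRAP took 6.02, 7.63 and 9.01% in MBCs and 14.8, 16.4, 18.0 and 15.9% in PCs. Signal peptidase took 13.2, 9.83 and 16.8% in MBCs and 24.6, 23.2, 21.6 and 21.5% in PCs. The OST moved the other way, from 39.8 to 48.3% in MBCs to 31.4 to 34.1% in PCs, as did the SRP, from 14.2 to 19.4% to 7.96 to 8.90%. The Sec61 channel took 6.38 to 10.3% in MBCs and 9.44 to 11.5% in PCs, and these ranges overlapped. In scaled TPM all 7 complexes had a higher summed level in PCs, so on that scale a lower share reflects a smaller rise and not a fall. The sums were not compared with TPM as deposited, where the SRP subunits Srp14 and Srp72 were at -0.24 and -0.45.

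**Figure D3:**
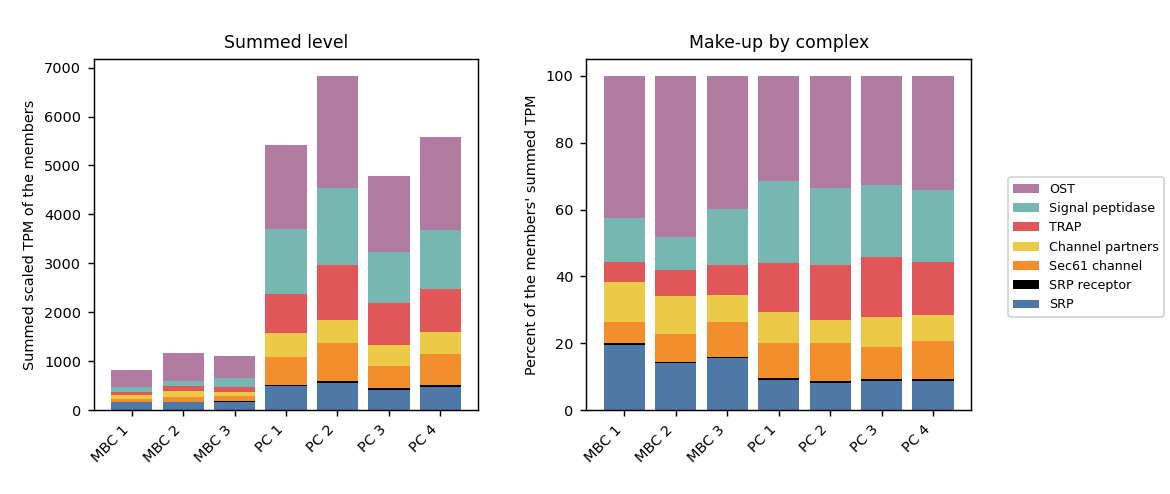
Left, scaled TPM summed over the genes of each complex, stacked for each library. Right, the same sums as percent of the 36 genes' total in that library. The stacks reach 814 to 1156 in MBCs and 4786 to 6830 in PCs, and the TRAP and signal peptidase bands are wider in PCs.

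Per length, the highest levels in PCs were those of Sec11c (439.5 ± 97.5 scaled TPM, SD, n = 4), Ost4 (398 ± 75.8), Ssr3 (359 ± 45.9) and Sec61b (350.1 ± 117), whose spreads overlap so that their order is not resolved. Sec61a2 (5.28 ± 3.14) and Tusc3 (5.63 ± 3.70) were the lowest and are not separated from each other. In MBCs Ost4 (121 ± 27.8, SD, n = 3) was followed by Stt3b (72.95 ± 6.39) and Tram1 (64.3 ± 41.6), which are not separated from each other. The coefficient of variation (SD over mean) was larger in MBCs than in PCs for 31 of the 36 genes, with medians of 49.0 and 20.6%. Stt3b, at 8.76%, had the smallest in MBCs. MBC replicate 3 was the highest MBC library for 15 of the 36 genes, against 35.1% of all tested genes.

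For transcripts under 600 bases the length correction of TPM is known to be least certain, since few fragment positions fit in them. By the median length of annotated coding transcripts 3 genes fell under this limit: Sec61b (430 bases), Tmem258 (526.5 bases) and Ssr2 (569 bases). Of these Sec61b and Ssr2 were called higher and Tmem258 was not. Leaving the 3 out, the share of TPM outside Ig and mitochondrial genes came to 0.241% for MBCs (SD 0.0192, n = 3) and 0.907% for PCs (SD 0.1001, n = 4), a 3.76-fold difference against 3.91-fold with them. A further 11 genes have a shortest coding transcript under the limit: Srprb (231 bases), Stt3a (285 bases), Srp54a (428 bases), Sec61g (450 bases), Ssr1 (523 bases), Sec11c (552 bases), Ost4 (576 bases), Krtcap2 (582 bases), Srp14 (587 bases), Tusc3 (588 bases) and Spcs1 (592 bases). Stt3a, Sec11c and Tusc3 among them enter the paralog shares, and which of their transcripts carried the TPM is not given in the sources used here. Krtcap2, Ost4 and Tmem258 overlap other genes on the opposite strand.

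Other genes of ER entry were listed by their role. Of 35 tested, 10 were called higher and 0 lower, beside 6.41% of all tested genes, with a median log2 fold change of 1.46. The 10 fell to 6 without PC replicate 2 and to 5 with TPM as deposited or with all genes above 0. They came to 14 without MBC replicate 3, beside 15.1% of all genes tested there. No such share was taken for the other settings. Within the lumen and its membrane, 4 of 5 were called higher: Hspa5, which encodes BiP (log2 fold change 3.44, SE 0.28, limma adjusted p = 9.1e-05), its exchange factors Hyou1 (4.17) and Sil1 (2.88), and Hm13, the signal peptide peptidase (4.26). All 3 ribosome-binding ER proteins were called higher, namely Ckap4 (4.72), Rrbp1 (2.47) and Lrrc59 (2.18). Ckap4 was at 24.3, 1.58 and 0.0780 scaled TPM in MBCs and 106, 107, 116 and 102 in PCs, where the PC libraries lay close together and the MBC libraries did not. Of the remaining groups, 1 of 7 genes of the multipass translocon (Rab5if, 2.58), 1 of 10 of the ER membrane protein complex (Emc4, 2.46) and 0 of 8 genes of the GET route for tail-anchored proteins and the SRP-independent SND route were called, with medians of 1.46, 0.87 and 0.98. The lowest value was that of Emc8 (-0.68, SE 0.53, limma adjusted p = 0.4705). Among the latter 8, Tmem208, which belongs to the SND route, came closest (log2 fold change 1.92, limma adjusted p = 0.0589). Tram1l1 was listed at 0 in all libraries. Whether these groups differ from the 36 genes was not tested.

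**Figure D4:**
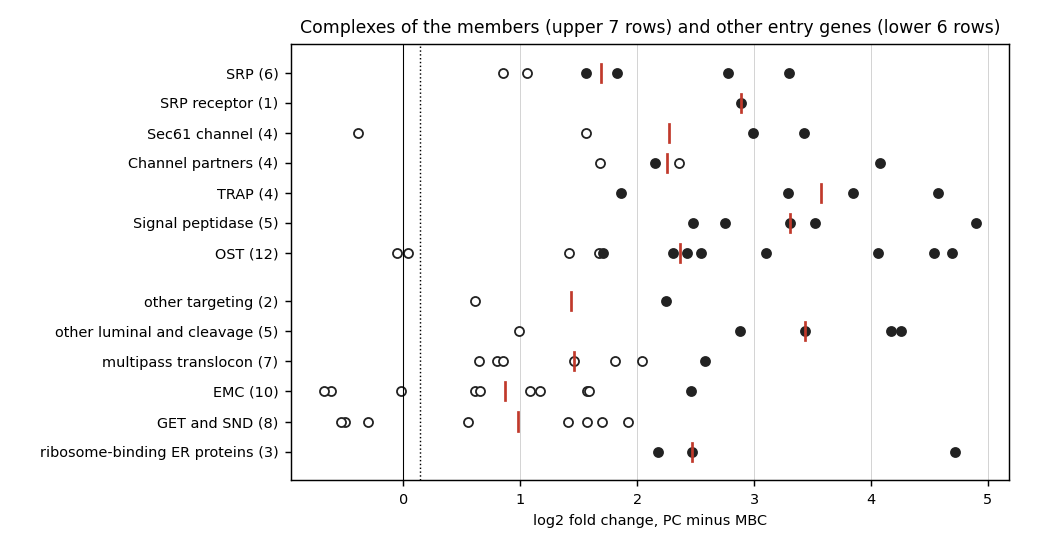
Log2 fold change (PC minus MBC, limma) of each gene, by complex for the 36 genes (upper 7 rows) and by role for 35 other ER entry genes (lower 6 rows), with the number of genes in parentheses. Filled points were called higher, open points were not called, red bars are medians and the dotted line is the median of all tested genes (0.14). All points of TRAP, signal peptidase and the ribosome-binding proteins are filled, and none of the GET and SND row.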

How the data were processed

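RNA from 3 MBC and 4 PC libraries was made into cDNA (NuGEN kit) and read by Illumina HiSeq. The submitters' processing notes name STAR 2.5.2a, RSEM 1.3.0, DESeq2 1.18.1 and the GRCm38 build, without stating their roles. The authors deposited 1 table of TPM (transcript abundance per length) for 48795 genes, and each column summed to 1000000. The annotation release, the strand setting of the counting and the read depth are not given in the sources used here.

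TPM was divided by median-ratio factors over 9305 genes above 0 in all 7 libraries. The test, on the 11573 genes that reached 1 TPM in 3 or more libraries, used log2(scaled TPM + 1), pseudocount 1, and limma 3.58.1 (R 4.3.3) with its mean-variance trend, the groups taken from the labels, with Benjamini-Hochberg adjustment over all of them. The pipeline was tested on simulated data. Paralog shares were compared with exact permutation tests over libraries. The labels do not say that replicates are separate mice, so p-values measure only the spread between these libraries. The genes, lists and pairs were chosen with earlier results of these data known, and by rule all 36 genes were named, with values per library for paralogs, for the largest and smallest change of each complex and for genes not called, and of the other list the genes with the largest and smallest change (Ckap4 and Emc8); its other named genes were chosen after their values were seen. Other ER entry genes numbered 37, of which 36 matched the table. Gene coordinates, transcript lengths and shared 50-base words came from the GENCODE annotation of GRCm38. Alternatives were another pseudocount, no filter, TPM as deposited, Ig genes removed, quantile normalization, replicate blocks, no trend, the more frequent title prefix alone, leaving out each library and, chosen after seeing the data, summing each gene with genes that share at least 5% of its words.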

Additional observations from a re-analysis of the deposited data

Results flagged for a closer look

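Each of 42 results (the 36 genes' levels, 5 paralog shares and the summed share) was examined in the 4 PC libraries for a value far from the rest, a check that chance alone trips in about 1 of 20 groups; 3 results stood out. For Srp68, PC replicate 4 lay at 51.1 scaled TPM, below the other PC libraries at 68.8 to 69.5. For Dad1, PC replicate 3 lay at 102.5 scaled TPM, below the others at 154 to 160.3. For the share of Tusc3 in the Magt1 and Tusc3 TPM, PC replicate 1 lay at 0.309%, below the others at 5.95 to 6.00%. The MBC group, with 3 libraries, was too small for this check.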

How the results depend on the processing

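Of 612 comparisons of a gene's log2 fold change under an alternative with the reported one, 535 kept the call and direction, 57 lost the call, 7 gained it and 13 changed sign, and 17 of the 36 genes had the same call and direction under every alternative. The share of all tested genes called higher was taken only for the reported fit and without MBC replicate 3. The number of the 36 genes called higher ran from 18 (TPM as deposited) to 27 (without MBC replicate 2 or 3). It was 20 with a replicate block by number or by title code and 20 with all genes above 0. Either block ended the calls of Srp9, Srp68, Ssr1 (adjusted p = 0.11 and 0.076), Sec11a and Ost4 (0.072 and 0.067), the block by number also that of Sec63 and the block by title code that of Srp54a. The median log2 fold change of all genes was 0.14 as reported, -0.91 with TPM as deposited, -0.11 with Ig genes removed and -0.15 after quantile normalization. With TPM as deposited 1 gene (Stt3b) was called lower, Srp14 was at -0.24, Srp72 at -0.45 and Tusc3 at -0.90. Tusc3 was at -0.18 with Ig genes removed, -0.39 after quantile normalization, -0.20 with a replicate block by number and -0.25 with a block by title code. Leaving out a library each time, Tusc3 ran from -1.05 to 0.76 and Stt3b from -0.13 to 0.04. Of the other ER entry genes, 5 were called higher with all genes above 0, 5 with TPM as deposited (where 3 were called lower), 5 with a replicate block by number, 6 with a block by title code, and 6 (without PC replicate 2) to 14 (without MBC replicate 3) on leaving out a library. In the more frequent title prefix alone, the share differences were -19.14 points for Sec61a2, -39.72 for Stt3b and 27.38 for Tram2, where p cannot go below 0.1; leaving out a library they ran from -18.52 to -14.53, from -42.36 to -39.08 and from 25.35 to 37.7. The summed share ratio was 2.19 with all genes in the total. The cause of these changes was not tested. Replicate numbers did not pair the libraries throughout: correlations of deviations from the group means within a number were 0.109, -0.04 and -0.083. Not every library correlated best with its own number. Within a title code the correlations were 0.109, -0.004 and 0.222. MBC replicates 1 and 3 correlated best with the PC library of their own code. MBC replicate 2 correlated best with PC replicate 1, which has another code (0.054). The reported fit did not pair libraries. The absence of read depth in TPM limits statements on low genes such as Tusc3 and Sec61a2.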
